A study of Mus musculus with 4 samples.

Results

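The DNA replication machinery was followed here as 45 genes that act in order at a replication origin and fork, in lymphoid-primed multipotent progenitors (LMPP) that do or do not express a reporter of IRF8. LMPP are early blood-forming cells of the mouse bone marrow that keep lymphoid and myeloid potential. Members were found as the non-control array probes whose RefSeq accession belongs to 1 of the 45 symbols. All 45 were found, with 52 probes, and 45 of the 22362 genes and unnamed transcripts tested are members. No member was lost to the filter on dim probes, since each passed the scanner's background test on every array.

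The cells came from IRF8-GFP knockin mice, in which green fluorescent protein reports IRF8, a transcription factor of monocyte and dendritic cell development. Both groups were sorted from bone marrow, on magnetic columns and then by flow cytometry, as cells with Sca-1, CD117, CD34 and CD135 but without lineage markers, IL-7R and CD150. The IRF8-GFP positive group and the IRF8-GFP negative group had 2 one-colour arrays each, labelled exp1 and exp2. Age, sex and number of mice are not given in the sources used here, and both groups carry the knockin. Whether 2 arrays of a group hold RNA of different animals is not stated, and the p-values cover the spread between arrays, possibly a technical one.

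An origin is licensed in G1 when the origin recognition complex, Cdc6 and Cdt1 load the Mcm2 to Mcm7 ring onto DNA, and geminin later blocks a repeat of this step within the same cycle. At the start of S phase the Dbf4-dependent kinase acts on the ring, Cdc45 and the GINS complex join it to form the active helicase, and polymerases alpha, delta and epsilon copy the strands with the help of the sliding clamp PCNA. Many of these genes are classical targets of E2F transcription factors and are switched on as cells enter the cycle. In bone marrow, stem cells are mostly quiescent while their progeny divide more often, so transcripts of this group are commonly read as a sign of cycling. In bulk RNA a larger share of cycling cells and more transcript per cell cannot be told apart.

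Nearly the whole machinery was more abundant in IRF8-GFP positive than in IRF8-GFP negative LMPP. Of the 45 genes 44 rose, 0 fell and 1, Orc4, did not pass (limma, Benjamini-Hochberg adjusted p under 0.05 over all 22362 genes). Among all genes 38.5% were called higher and 21.4% lower, and among the 13341 named genes 44.1% and 19.0%. Of the 44, Gins3 and Chaf1b changed sign under 4 of the other scalings. The median log2 difference of the members, positive minus negative, was 0.73, which is 1.66-fold, against 0.16 for all genes tested. Values below are log2 signals relative to the 75th percentile of each array, and a difference of such values is a log2 fold change. The median level of the members was 4.14 and 4.28 on the positive arrays, against 3.32 and 3.29 on the negative arrays. In 44 members the lower positive array exceeded the higher negative one, as in 52.4% of all genes. In Orc4 both positive arrays were the lower ones, as in 29.8% of all genes. The rise was of at least 1.5-fold in 35 members, a size reached with a call by 13.9% of all genes, and of at least 2-fold in 4 (Orc1, Fen1, Mcm10 and Prim2). A called rise of 1.5-fold was reached by 15 members with quantile normalization (8.04% of all genes), 13 with cyclic loess (7.45%) and 8 with spike-in scaling (3.39%), and one of 2-fold by 2, 1 and 0. Without negative replicate 1 the members called higher numbered 39 and without negative replicate 2 they numbered 40, while the calls over all genes dropped to 4760 and 4808, against 8611 with all arrays. The adjusted p of the 44 lay between 0.00153 and 0.0207.

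**Figure D1:**
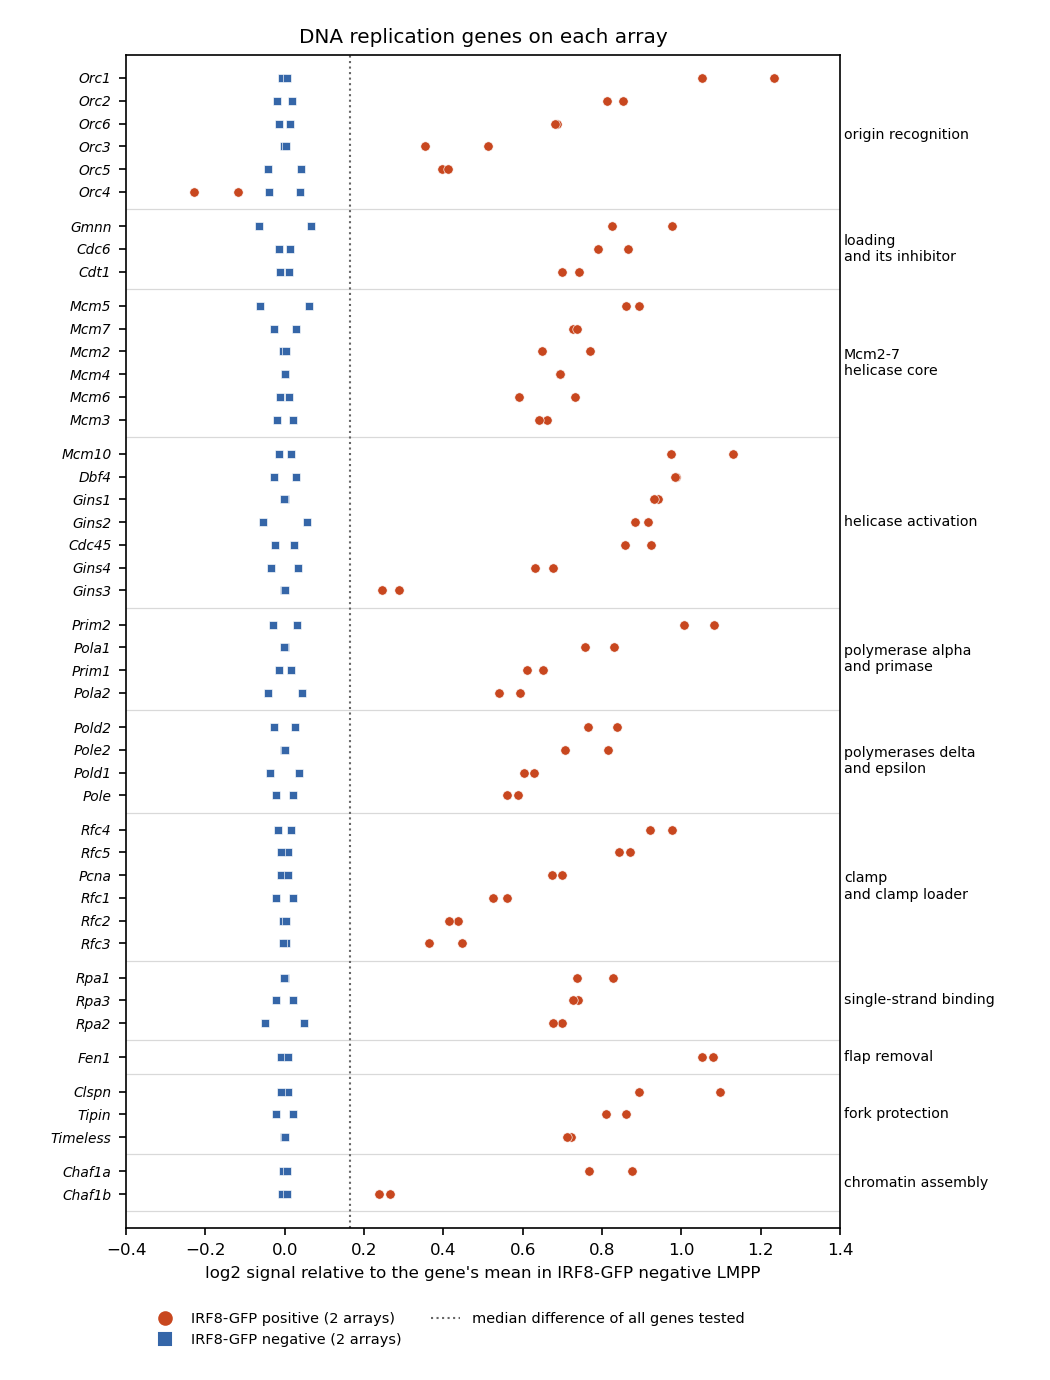
Log2 signal of each of the 45 replication genes on each array (x axis), relative to the gene's mean on the 2 IRF8-GFP negative arrays. Circles are the 2 positive arrays, squares the 2 negative arrays, and the dotted line is the median difference of all genes tested, 0.16. The positive arrays lie to the right of the negative ones in 44 genes, with Orc4 the exception. Gins3 and Chaf1b, whose sign turns under quantile, cyclic loess and spike-in scaling and in the authors' matrix, lie closest to the line among the 44.

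The differences were set against brightness because the share of genes called higher increased with it. All genes were split by mean signal into 4 groups of equal size. The brightest group held 30 members, all of which rose, and 67.1% of its genes were called higher. The next group held 8 members, all of which rose, against 44.6% of its genes. The third held 7 members, of which 6 rose, against 24.5% of its genes. The dimmest, with 17.8% called higher, held 0 members. When cyclic loess removed the trend with brightness, 37 members rose and 0 fell, against 24.8% of all genes higher and 25.7% lower.

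**Figure D2:**
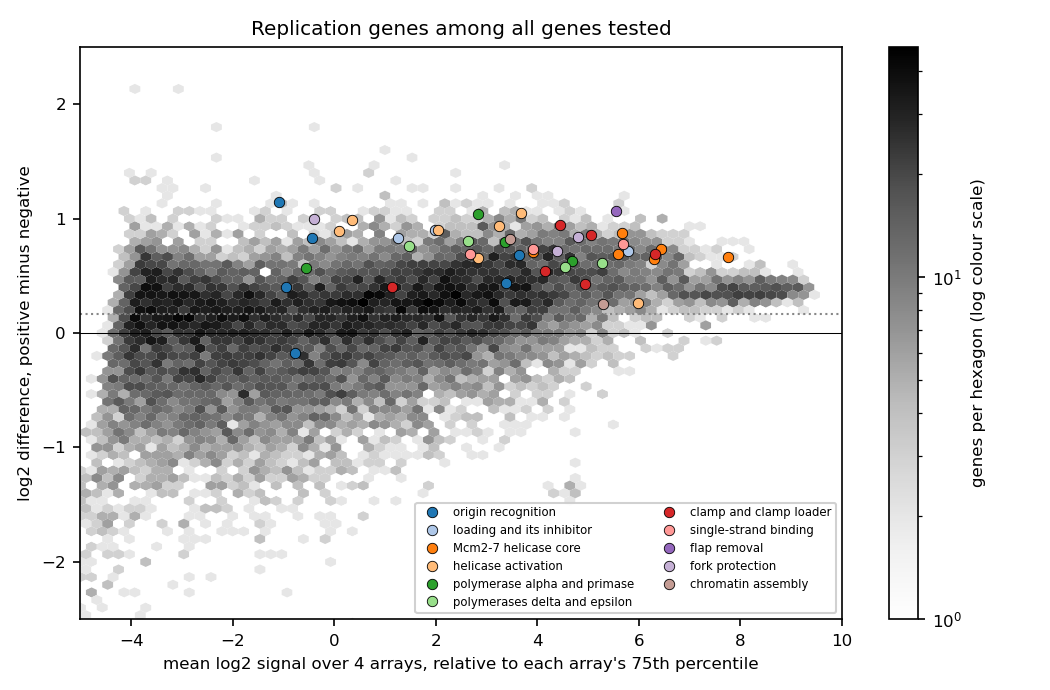
Log2 difference, positive minus negative (y axis), against mean log2 signal over the 4 arrays (x axis) for all 22362 genes tested (grey hexagons, log colour scale) and the replication genes (circles, coloured by role). Differences beyond 2.5 in either direction are not drawn. The members sit in the upper part of the cloud over most of its width, and the dotted line marks the median of all genes, 0.16.

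The size of the difference depended on the scaling, while 43 of the 45 members kept their sign. With quantile normalization the members' median was 0.42, against 0.04 for all genes. The authors' own matrix gave 0.42, against 0.04. Cyclic loess gave 0.41, against 0.02, and centring on spike-in controls gave 0.41, against -0.15. The members' median lay 0.57 above that of all genes with the 75th percentile. With quantile normalization, the authors' matrix and cyclic loess it lay 0.38 to 0.39 above. Spike-in centring subtracts a constant per array, so it gives the same 0.57 by construction and is no independent check of this distance. With spike-in controls 37 members rose and 1 fell, although 14.2% of all genes were then called higher and 36.7% lower. Quantile normalization gave 39 that rose and 1 that fell, against 27.1% of all genes higher and 24.4% lower. The authors' matrix gave the same 2 counts, against 27.0% and 24.5%. Centring on commonly detected probes, those above background on every array, also gave 39 and 1, against 19.6% and 32.4%. Normexp background correction gave 43 and 0, against 44.8% and 16.0%.

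**Figure D3:**
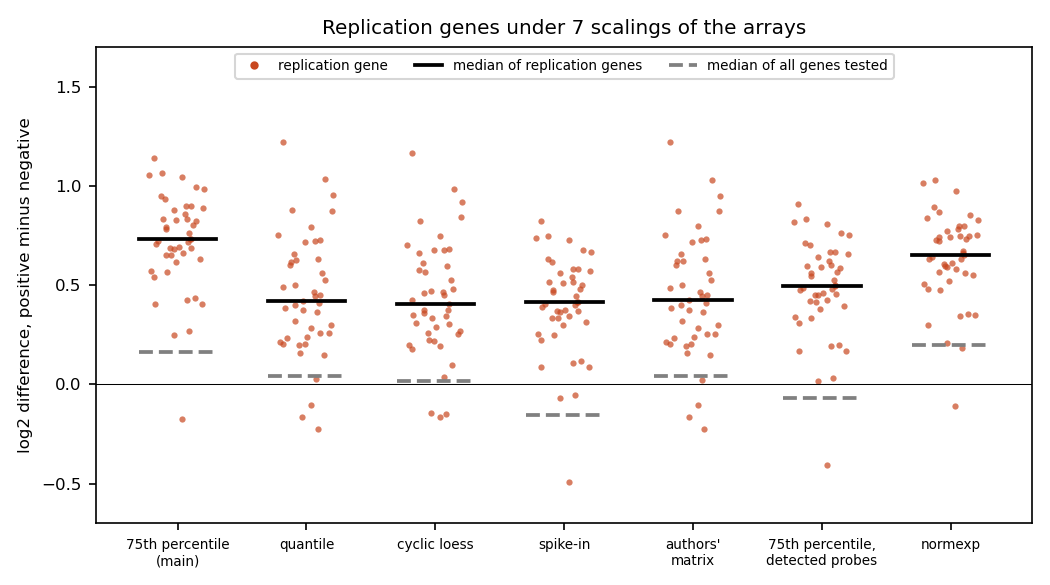
Log2 difference, positive minus negative, of each replication gene (points) under 7 ways of scaling the arrays (x axis). Solid bars are the median of the 45 genes and dashed bars the median of all genes tested. The solid bar lies above the dashed one in each column, by 0.38 with quantile normalization and by up to 0.57 with the 75th percentile.

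Promoters were examined for the letters of E2F sites, since the members moved together. The RefSeq table of promoter windows (GRCm38.p6), 250 bases before to 50 bases after each start, held 36 of the 45 members. The letters searched on both strands were TTTGGCGC, TTTCCCGC, TTTGCCGC and TTTCGCGC for E2F and CCAAT for the CCAAT box. E2F-type letters stood in 14 of the 36 members (38.9%), against 2.60% of all 27025 genes with a window and 4.44% of the 10695 of them that were tested. CCAAT stood in 23 members (63.9%), against 41.1% of all genes with a window and 42.9% of those tested, and 1 of 20 E2F-type matches shared bases with CCAAT, in Mcm7. Of the neighbouring lists below, nucleotide supply held E2F-type letters in 0 of 14 genes and G2 and M phase in 1 of 16. These 2 lists had median log2 differences of 0.74 and 1.18. The letters stood in 7 of 21 other replication factors, 5 of 12 E2F and pocket protein genes and 4 of 11 chromatin genes. They stood in 1 of 8 checkpoint genes. A part of the letters in the rise was not tested. Matches are descriptions of letters, not of bound sites. The matches of the helicase and loading genes, with those of Rfc3 and Gins3, which had the smallest differences in their complexes, are printed on the gene's strand with the E2F-type letters in capitals.
Mcm3 (chr1:20820276-20820303, minus strand): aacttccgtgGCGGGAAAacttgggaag
Mcm5 (chr8:75109346-75109377, plus strand): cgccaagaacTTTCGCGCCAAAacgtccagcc
Mcm6 upstream match (chr1:128359794-128359825, minus strand): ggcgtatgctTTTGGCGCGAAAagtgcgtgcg
Mcm6 downstream match (chr1:128359735-128359762, minus strand): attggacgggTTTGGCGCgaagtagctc
Mcm7 upstream match (chr5:138172031-138172058, minus strand): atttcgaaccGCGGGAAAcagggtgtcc
Mcm7 downstream match (chr5:138171850-138171877, minus strand): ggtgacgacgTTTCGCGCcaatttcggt
Cdc6 (chr11:98908003-98908030, plus strand): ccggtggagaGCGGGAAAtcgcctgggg
Cdt1 (chr8:122568037-122568064, plus strand): gaactaccttTTTGGCGCcatggcgcaa
Rfc3 (chr5:151651191-151651228, minus strand): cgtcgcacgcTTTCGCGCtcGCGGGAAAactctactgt
Gins3 (chr8:95633508-95633535, plus strand): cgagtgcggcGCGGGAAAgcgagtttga
The Mcm5 and the upstream Mcm6 match each hold 2 overlapping copies on opposite strands, and Rfc3 holds 2 copies side by side. Mcm3 has a further match beside the one printed. The median log2 difference was 0.73 in the 14 members with E2F-type letters and 0.72 in the 22 without. Differences ran from 0.27 (Gins3) to 1.14 (Orc1) in the first set and from -0.17 (Orc4) to 1.07 (Fen1) in the second. The 9 members without a window, among them Prim2, Gins1 and Gins2, are in neither set. Only exact letters within the window were searched, and a link of E2F sites to the size of the rise was not tested.

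The origin recognition complex, which marks the sites where replication can start, was the most uneven group. Of its 6 genes 5 rose and Orc4 did not pass. Orc1, the subunit whose level is known to follow the cell cycle in human cells, had the largest difference of all members, except with normexp, where it was 0.84 and Fen1 led with 1.03. It had -0.60 and -0.42 in positive LMPP, against -1.66 and -1.65 in negative LMPP, a 2.21-fold rise (log2 difference 1.14, SE 0.08, limma adjusted p = 0.00214). Its promoter window is shown whole, with the E2F-type match and both CCAAT boxes in capitals, because it led the members.
Orc1 promoter (chr4:108579204-108579503, plus strand): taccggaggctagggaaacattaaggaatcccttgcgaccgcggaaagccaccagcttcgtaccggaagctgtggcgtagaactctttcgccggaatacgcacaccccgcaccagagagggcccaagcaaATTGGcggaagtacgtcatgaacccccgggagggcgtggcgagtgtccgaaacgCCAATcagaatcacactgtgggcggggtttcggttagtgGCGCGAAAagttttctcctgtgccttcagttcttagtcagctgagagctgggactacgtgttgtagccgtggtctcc
Fen1, next in size, has 2 windows that hold neither set of letters. Orc2 had 0.01 and -0.03 in positive LMPP, against -0.87 and -0.83 in negative LMPP (log2 difference 0.83). Orc6 had 3.99 on both positive arrays, against 3.32 and 3.29 on the negative ones (0.68). In all 3 genes both positive arrays lay above both negative ones, as in 52.4% of all genes.

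The remaining subunits moved less. Orc3 had 3.53 and 3.69 in positive LMPP, against 3.17 and 3.18 in negative LMPP (0.43, SE 0.08, limma adjusted p = 0.0123). Its second probe gave 0.43 but did not pass (SE 0.15, limma adjusted p over probes = 0.0733). Orc5 had -0.76 and -0.74, against -1.19 and -1.11 in negative LMPP (0.40, adjusted p = 0.00813). Orc3 did not pass without negative replicate 1 or 2 (adjusted p of 0.0712 and 0.0711), and kept its call in 10 of 18 alternatives. Its difference was 0.15 with quantile normalization and in the authors' matrix, 0.12 with spike-in scaling, 0.20 with commonly detected probes and 0.10 with cyclic loess (adjusted p of 0.0928 to 0.295). With commonly detected probes Orc5 was not called either (0.17, adjusted p = 0.0687). Orc5 did not pass without negative replicate 1 (adjusted p = 0.0581) or with spike-in scaling (0.09, adjusted p = 0.27). Orc4 had -0.92 and -0.81 in positive LMPP, against -0.65 and -0.73 in negative LMPP (-0.17, SE 0.07, adjusted p = 0.103), and its second probe gave -0.12. Orc4 was called lower with spike-in scaling (-0.49, adjusted p = 0.00938) and with centring on commonly detected probes (-0.41, adjusted p = 0.0146). The gap between Orc1 and Orc4 was 1.32 on the log2 scale and lay between 0.94 and 1.33 over the 7 scalings. Gaps here and below cannot differ between the 75th percentile, spike-in and commonly detected probe scalings, which each subtract a constant per array. Quantile normalization and the authors' matrix were also nearly alike (Orc1 1.22 in both). In each complex the gap is taken between the genes with the largest and the smallest difference.

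Loading factors and their inhibitor rose side by side. Cdc6, the ATPase that helps the origin complex load the ring, had 1.63 and 1.71 in positive LMPP, against 0.85 and 0.83 in negative LMPP (log2 difference 0.83, SE 0.06, limma adjusted p = 0.00214), and its second probe gave 0.59. Cdt1, which brings the ring to the origin, had 6.17 and 6.12, against 5.41 and 5.43 in negative LMPP (0.72, SE 0.06, adjusted p = 0.00225). Gmnn encodes geminin, which binds Cdt1 and blocks relicensing. It had 2.37 and 2.52 in positive LMPP, against 1.48 and 1.61 in negative LMPP (0.90, SE 0.09, adjusted p = 0.00315). In each of these genes both positive arrays lay above both negative ones, as in 52.4% of all genes. Each gene kept its call under all 18 alternatives.

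All 6 genes of the Mcm2 to Mcm7 ring, the core of the replicative helicase, rose. The rise ran from 1.57-fold (Mcm3) to 1.84-fold (Mcm5), with a median log2 difference of 0.70. Mcm5 had 6.10 and 6.13 in positive LMPP, against 5.18 and 5.30 in negative LMPP (0.88, SE 0.07, limma adjusted p = 0.00228). Mcm4 had 5.95 on both positive arrays, against 5.25 on both negative arrays (0.69). Mcm7 lay at 6.81 and 6.82, against 6.05 and 6.11 in negative LMPP (0.73). For Mcm2 the values were 4.22 and 4.34, against 3.57 and 3.58 in negative LMPP (0.71). No ring gene had overlapping groups, with the positive arrays higher, as in 52.4% of all genes. All 6 belong to the brightest group of genes, in which 67.1% were called higher. The smallest difference of any positive from any negative array was 0.58, in Mcm6. Mcm6 had 8.17 and 8.03, against 7.45 and 7.43 in negative LMPP (0.66). Mcm3 averaged 6.63 ± 0.02 in positive LMPP and 5.98 ± 0.03 in negative LMPP (SD, n = 2 each), a difference of 0.65. Mcm3 did not pass with quantile normalization (0.16, limma adjusted p = 0.0772) or in the authors' matrix (0.16, adjusted p = 0.0808), nor Mcm6 with cyclic loess (0.19, adjusted p = 0.0556). The spread over the ring, Mcm5 minus Mcm3, was 0.23 (0.18 to 0.27 over the 7 scalings), against 1.32 over the origin recognition complex. Over the array pairs Mcm3 differed by 0.62 to 0.68 and Mcm5 by 0.80 to 0.95. These genes were picked as the extremes of the ring, so ranges that stay apart are no test of a split. With quantile normalization Mcm5 differed by 0.42 and Mcm3 by 0.16.

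Factors that turn the loaded ring into a moving helicase had a median log2 difference of 0.90. All 7 were called higher with the 75th percentile scaling, but Gins3 was called lower under 2 other scalings, as given below. Mcm10, needed for the helicase to start, had 4.14 and 4.29 in positive LMPP, against 3.15 and 3.18 in negative LMPP, a 2.08-fold rise (1.05, SE 0.08, limma adjusted p = 0.00215). Dbf4, the activating subunit of the Cdc7 kinase, had 0.84 on both positive arrays, against -0.12 and -0.18 on the negative ones (0.99, SE 0.06, adjusted p = 0.00172). Cdc45, a partner of the ring in the active helicase, had 0.51 and 0.57, against -0.37 and -0.32 in negative LMPP (0.89, SE 0.06, adjusted p = 0.00197). In these 3 genes both positive arrays lay above both negative ones, as in 52.4% of all genes. Their calls were kept under all 18 alternatives.

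Within GINS, the 4-subunit complex that completes the helicase, 1 gene lagged. Gins1 had 3.72 and 3.71 in positive LMPP, against 2.78 and 2.77 in negative LMPP (log2 difference 0.94), Gins2 differed by 0.90 and Gins4 by 0.65. Gins3 had 6.13 and 6.09, against 5.84 on one and 5.85 on the other negative array (0.27, SE 0.06, limma adjusted p = 0.0186). Gins3 therefore lay 0.67 below Gins1, and this gap was 0.67 to 0.88 over the 7 scalings. No direction can be given for Gins3 itself. It did not pass with normexp (0.18, limma adjusted p = 0.0517) or with commonly detected probes (0.03, adjusted p = 0.646). Quantile normalization turned its sign and called it lower (-0.23, adjusted p = 0.0312), as did the authors' matrix (-0.23, adjusted p = 0.0316), and the sign also turned with cyclic loess (-0.15) and with spike-in scaling (-0.051). The call was lost when negative replicate 1 (adjusted p = 0.0989), negative replicate 2 (0.101) or positive replicate 1 (0.0636) was left out.

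Polymerase alpha and primase, which lay down the RNA and DNA primers, rose in all 4 subunits. Prim2, the large primase subunit, had 3.33 and 3.40 in positive LMPP, against 2.29 and 2.35 in negative LMPP, a 2.06-fold rise (log2 difference 1.04, SE 0.06, limma adjusted p = 0.00179). Pola1, the catalytic subunit, had 3.73 and 3.81, against 2.98 on both negative arrays (0.79). Prim1, which makes the RNA primer, had 4.98 and 5.02, against 4.35 and 4.38 in negative LMPP (0.63). Pola2, an accessory subunit, had -0.24 and -0.29, against -0.79 and -0.88 in negative LMPP (0.57). The groups did not overlap in any subunit, with the positive arrays higher, as in 52.4% of all genes. Of the 4, 3 belong to the brightest group of genes, in which 67.1% were called higher. Pola2 did not pass with spike-in scaling (0.25, adjusted p = 0.0686). Prim2 and Pola2 were 0.48 apart, a gap that ran from 0.17 to 0.50 over the 7 scalings, with the low end under quantile normalization.

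All 4 genes of the polymerases of the lagging and leading strand rose. Pold1, the catalytic subunit of polymerase delta, had 5.58 and 5.61 in positive LMPP, against 4.94 and 5.02 in negative LMPP (log2 difference 0.62, SE 0.06, limma adjusted p = 0.0031), and did not pass with cyclic loess (0.22, adjusted p = 0.0513). Its partner Pold2 had 2.99 and 3.07, against 2.20 and 2.26 in negative LMPP (0.80). Pole, the catalytic subunit of polymerase epsilon, had 4.82 and 4.85, against 4.28 and 4.24 in negative LMPP (0.57). Pole2 had 1.79 and 1.90, against 1.09 on both negative arrays (0.76). The groups did not overlap in any of the 4, with the positive arrays higher, as in 52.4% of all genes. Pold2 and Pole2 had larger differences than the catalytic subunits. A second Pole probe was not above background on any array and carried no information.

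The clamp and the subunits of its loader rose, by amounts that differed between subunits. Pcna, the ring that tethers polymerases to DNA, had 6.67 and 6.65 in positive LMPP, against 5.96 and 5.98 in negative LMPP, a 1.61-fold rise (log2 difference 0.69, SE 0.05, limma adjusted p = 0.00228). Among the loader genes, Rfc4 had 4.95 and 4.89, against 3.98 and 3.95 in negative LMPP (0.95, SE 0.06, adjusted p = 0.00181), and its second probe gave 1.03. Rfc5 had 5.47 and 5.50, against 4.64 and 4.62 in negative LMPP (0.86). Rfc1, the large subunit, had 4.41 and 4.45, against 3.87 and 3.91 in negative LMPP (0.54). For Rfc2 the arrays read 5.16 and 5.14, against 4.72 and 4.73 in negative LMPP (0.43), and for Rfc3 1.39 and 1.31, against 0.95 and 0.94 (0.40). In all 6 both positive arrays lay above both negative ones, as in 52.4% of all genes. Of the 6, 5 belong to the brightest group of genes, in which 67.1% were called higher. Over the 4 pairs of a positive and a negative array, Rfc4 differed by 0.90 to 0.99 and Rfc3 by 0.36 to 0.45. These genes were picked as the largest and smallest differences of the loader, so ranges that stay apart are no test of a split. The gap between Rfc4 and Rfc3 was 0.54, and 0.30 to 0.54 over the 7 scalings. Rfc2 did not pass with quantile normalization (0.03), with the authors' matrix (0.02), with cyclic loess (0.04) or with spike-in scaling (0.11), where its adjusted p ran from 0.219 to 0.72. With commonly detected probes Rfc3 was not called (0.17, limma adjusted p = 0.0833). Rfc3 did not pass without negative replicate 1 or 2 (0.0563 and 0.0579), nor with spike-in scaling (0.09, adjusted p = 0.394), and Rfc1 did not with cyclic loess (0.18, adjusted p = 0.0557).

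Replication protein A coats single-stranded DNA at the fork, and its 3 subunits rose together, by 1.61-fold (Rpa2) to 1.72-fold (Rpa1). A rise was called in 38.5% of all genes. Rpa1 had 6.04 and 6.13 in positive LMPP, against 5.31 on both negative arrays (log2 difference 0.78, SE 0.06, limma adjusted p = 0.00228). Rpa2 and Rpa3 differed by 0.69 and 0.73. The ranges of Rpa1 and Rpa2 over the 4 array pairs overlapped, so these subunits could not be set apart. Fen1, the nuclease that trims the flaps of Okazaki fragments, had 6.07 and 6.10 in positive LMPP, against 5.01 and 5.03 in negative LMPP. Its 2.09-fold rise was second in size and had the lowest adjusted p of the members (1.07, SE 0.05, adjusted p = 0.00153).

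Fork protection factors rose in all 3 cases, against 38.5% of all genes called higher. Clspn encodes claspin, an adaptor of the replication checkpoint. It had -0.01 and 0.19 in positive LMPP, against -0.89 and -0.91 in negative LMPP (log2 difference 0.995, SE 0.09, limma adjusted p = 0.00274). Tipin and Timeless, which travel with the fork as a pair, differed by 0.84 and 0.72. Of the chromatin assembly factor that places histones behind the fork, Chaf1a had 3.81 and 3.92, against 3.04 and 3.05 in negative LMPP (0.82, SE 0.07, adjusted p = 0.0023). Chaf1b had 5.43 and 5.41, against 5.16 and 5.17 in negative LMPP (0.25, SE 0.05, adjusted p = 0.0207), and its second probe gave 0.23. Chaf1b did not pass with any 1 array left out: the adjusted p was 0.11 without negative replicate 1, 0.105 without negative replicate 2, 0.0691 without positive replicate 1 and 0.0512 without positive replicate 2. Quantile normalization (-0.16), the authors' matrix (-0.17), cyclic loess (-0.14) and spike-in scaling (-0.067) turned its sign, so no direction can be given for it. With commonly detected probes Chaf1b differed by 0.02 and was not called (limma adjusted p = 0.811). The gap between Chaf1a and Chaf1b was 0.57, and 0.54 to 0.69 over the 7 scalings.

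Genes that work beside these members moved the same way in most lists. Of 25 other replication factors 23 rose and 0 fell (median log2 difference 0.64), against 38.5% of all genes higher and 21.4% lower. The largest differences were those of Recql4 (1.002), a helicase of replication initiation, Chtf18 (0.93), part of an alternative clamp loader, Rnaseh2c (0.90), a subunit of the enzyme that removes ribonucleotides from DNA, and Ticrr (0.87), the treslin gene needed to fire origins. Pold4, the small polymerase delta subunit, had 1.39 on both positive arrays, against 1.43 and 1.42 on the negative ones (-0.04), and Mcm9 differed by 0.11. These 2 did not pass. With spike-in scaling 14 of the 25 rose and 1 fell, against 14.2% of all genes higher and 36.7% lower.

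Nucleotide supply followed. Of 16 genes 14 rose and 1 fell (median 0.74), against 38.5% of all genes higher and 21.4% lower. Rrm2, the regulated subunit of ribonucleotide reductase, had 5.12 and 5.05 in positive LMPP, against 3.73 and 3.79 in negative LMPP, a 2.49-fold rise (log2 difference 1.32, SE 0.06, limma adjusted p = 0.00144). Its partner Rrm1 differed by 1.07, Tk1, the thymidine kinase of S phase, by 1.05 and Dut, which removes dUTP, by 0.98. Samhd1, which breaks down dNTPs and was singled out after its values were seen, was the gene that fell (-0.38, adjusted p = 0.0121). That call was lost without negative replicate 1 (adjusted p = 0.0543) and without negative replicate 2 (0.077). Rrm2b, the subunit that serves resting cells, differed by -0.43 (SE 0.48) without passing, on a probe above background on 3 of 4 arrays.

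The E2F family and the pocket proteins, which include activators and repressors of replication genes, rose in part. Of 16 E2F and pocket protein genes 12 rose and 2 fell (median 0.58), against 38.5% of all genes higher and 21.4% lower. E2f8 (1.08), a repressor of the family, Tfdp1 (1.03), the dimer partner of E2F, and the activators E2f2 (0.94) and E2f1 (0.88) led. Tfdp2 (-0.40, limma adjusted p = 0.00939) and E2f5 (-0.40, adjusted p = 0.0266) fell and were named after their values were seen. Lin37 (0.13) and Rbl2 (-0.18), which belong to the complex that silences cell cycle genes in resting cells, did not pass. Lin9, Lin54, Rbl1 and E2f4, also of this complex, were called higher. Tfdp2 lost its call without negative replicate 1 (adjusted p = 0.0631) or 2 (0.0617), and with the mean of its probes (-0.17, adjusted p = 0.0602). E2f5 lost it on leaving out negative replicate 2 (0.0918), positive replicate 1 (0.051) or positive replicate 2 (0.0685), with quantile normalization (-0.27, 0.0968), the authors' matrix (-0.27, 0.0967), cyclic loess (0.0508), no filter (0.05002) and normexp (-0.07, 0.499). With spike-in scaling 7 rose and 3 fell, against 14.2% of all genes higher and 36.7% lower.

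Of 11 genes of replication-coupled chromatin 10 rose and 1 fell (median 0.71), against 38.5% of all genes higher and 21.4% lower. Nasp, a histone chaperone, had the largest difference (1.01), followed by Asf1b (0.84), Uhrf1 (0.84) and the maintenance methyltransferase gene Dnmt1 (0.81). Asf1a, singled out after its values were seen, fell (-0.30, limma adjusted p = 0.0398), a call that was lost when negative replicate 1 (0.15), negative replicate 2 (0.144) or positive replicate 1 (0.09) was left out, and under the replicate block (0.0518), quantile normalization (-0.24, 0.0773), the authors' matrix (0.0752), cyclic loess (0.0542) and no filter (0.0671). Of 10 genes of the replication checkpoint 9 rose and 0 fell, against the same 38.5% and 21.4% of all genes. Their median was 0.39, led by Cdc25a (0.70), Rad1 (0.58), Rad9a (0.51) and the kinase gene Atr (0.46). Chek1 (0.39, adjusted p = 0.149) did not pass. Without negative replicate 1 the count was 3 (21.3% of all genes called higher), without negative replicate 2 it was 5 (21.5%), and with spike-in scaling it was 2 (14.2%), which is near the share of all genes. All 20 genes of G2 and M phase rose, against 38.5% of all genes. Their median was 1.18, with the largest differences in Aurkb (1.69), Ube2c (1.45), Plk1 (1.43) and Kif11 (1.42). All 20 were called higher under each of the 18 alternatives. Differences between the medians of these lists and that of the replication genes were not tested.

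**Figure D4:**
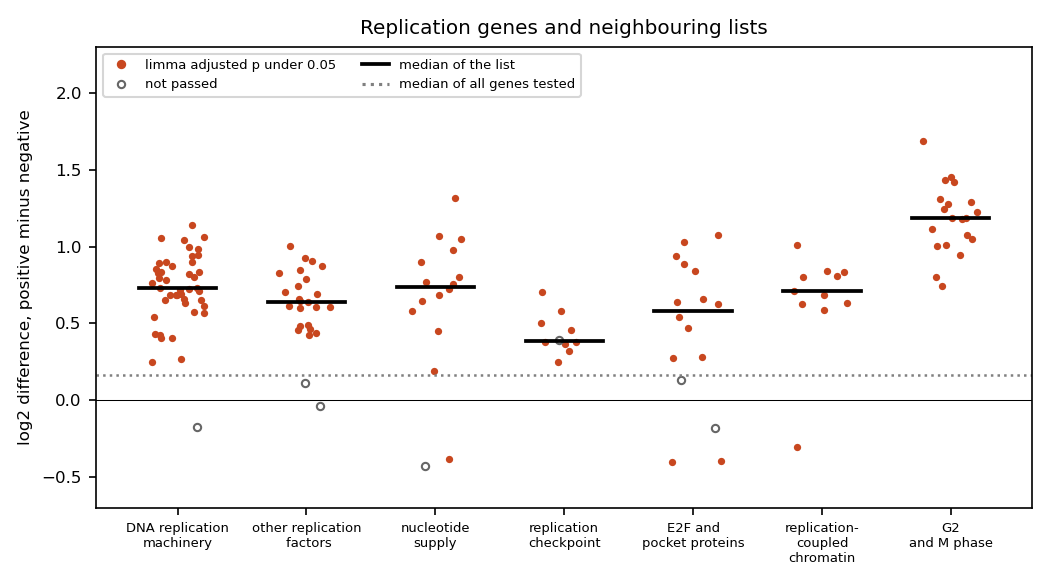
Log2 difference, positive minus negative (y axis), of the 45 replication genes and of 6 neighbouring lists. Filled points passed a limma adjusted p of 0.05, open points did not, bars are list medians and the dotted line is the median of all genes tested, 0.16. The list medians run from 0.39 for the replication checkpoint to 1.18 for G2 and M phase, with 0.73 for the replication genes.

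The sorting gate and markers of other cells were read on the same arrays. Irf8 had 5.13 and 5.22 in positive LMPP, against 1.64 and 1.60 in negative LMPP, a log2 difference of 3.55 in the direction of the reporter sort. Of the other gate genes, Slamf1, which encodes CD150, was not above background on any array, Cd34 and Flt3 (CD135) differed by 0.26 and 0.25, Kit (CD117) by -0.39 and Ly6a (Sca-1) by -0.96. Il7r, whose protein was gated out in both groups, differed by 2.40. Of 8 stem cell genes 6 fell and 0 rose, and the summed signal of the genes of this list on the array, in units of each array's 75th percentile, was 8.50 to 8.58 in positive LMPP, against 42.3 to 44.1 in negative LMPP. Of 9 tested megakaryocyte and erythroid genes 8 fell and 0 rose. Of 6 monocyte and macrophage genes 5 rose (sum 73.2 to 74.9, against 9.19 to 9.40 in negative LMPP), while Cd68 and Ly6c2 were not named on the array. Of 5 tested neutrophil genes 2 rose, among them Elane (1.57), and 1, S100a9 (-1.11), fell. S100a8 had the lowest difference of the list (-1.16). The 2 shares are near those of all genes, 38.5% and 21.4% (median -0.09, sum 545 to 618, against 200.1 to 205 in negative LMPP). Ltf, Mmp8 and Ngp of that list were not above background on any array. In addition, of 7 dendritic cell genes 4 rose and 1 fell (sum 119.6 to 139.9, against 116.7 to 161.9 in negative LMPP). Clec9a (5.02) was among those that rose and had the largest difference, while Ccr9 (-1.81) had the lowest. Xcr1 was not above background. Of 4 B lineage genes 2 rose (sum 14.7 to 15.04, against 11.1 to 11.6 in negative LMPP), with Ebf1 and Igll1 not above background. Of 5 T, NK and innate lymphoid genes 1 rose and 2 fell, Gata3 by 2.06 (sum 43.8 to 44.5, against 39.7 to 40.4 in negative LMPP), with Cd3g, Cd8a and Ncr1 not above background. Cd3e had the highest difference of that list (0.77). Of 5 mast cell and basophil genes 1 rose and 1, Gata2 (-1.15), fell (sum 7.31 to 8.26, against 8.62 to 8.65 in negative LMPP), with Ms4a2 not above background. Mcpt8 had the highest difference of that list (0.84). Of 6 stroma and endothelium genes 1 rose and 2 fell (sum 17.3 to 21.8, against 14.3 to 16.5 in negative LMPP), with Cdh5 not above background. Of 8 immediate early and heat shock genes 2 rose and 3 fell, among them Egr1 (-1.40) (sum 70.3 to 72.4, against 65.7 to 66.1 in negative LMPP). Hspa1a had the highest difference of that list (0.58). The counts of the marker lists are to be read beside the shares of all genes, 38.5% higher and 21.4% lower. The part of the cells and genes behind these lists in the rise of the replication genes was not tested. The positive arrays had 29631 and 30266 of 59305 spots well above background, against 33506 and 33681 on the negative arrays, and all 4 lay on 1 slide scanned on 1 day.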

How the data were processed

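RNA of 2 IRF8-GFP positive and 2 IRF8-GFP negative LMPP samples was labelled with Cy3 and hybridized to Agilent one-colour arrays, per the labels' protocols. Per the file headers, Agilent Feature Extraction (version 10.7.3.1) gave a processed spot intensity that is background-subtracted and detrended and was not normalized between arrays by the authors. The deposited matrix gives intensity on a linear scale, and its 4 columns share the same sorted values, as quantile normalization leaves them. How it was centred is not known.

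Control and outlier spots were left out, spots of a probe averaged, taken to log2, and the 75th percentile of 55669 probes subtracted. Probes well above background on both arrays of a group were kept (30478), and the brightest probe stood for a gene. RefSeq accessions of GRCm38.p6 named 26756 probes, and 28913 stayed unnamed. Positive minus negative was fitted over the 22362 genes without a block, with limma 3.58.1 (R 4.3.3) and two-sided p-values, and the fit was tested on simulated data. The simulated data followed the fitted variance prior with independent normal errors, so they do not test the p-values of these arrays. With 2 arrays a group, the smallest p of an exact permutation test is 0.333. Arrays of the same number had deviations from their group means that correlated at 0.0971, and the labels do not say what they share. Precision is limited by having 4 arrays. The alternatives were another scaling, background correction, filter, variance prior, probe rule or threshold, a replicate block, and each array left out, in which case the lone array is taken to vary as the other group does. All members are named. From each neighbouring list up to 4 called genes with the largest difference and up to 2 brightest genes that did not pass are named. Members, lists and tests were chosen with earlier results of these data known.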

Additional observations from a re-analysis of the deposited data

How the results depend on the processing

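Of the 45 replication genes 33 kept their call and direction under all 18 alternatives, and 43 kept their sign. The replicate block gave 44 higher and 0 lower members, with 9094 higher and 4852 lower calls over all genes, and changed no member's call, while Asf1a lost its call (adjusted p = 0.0518). The labels number the arrays of both groups but do not say what a number shares. Leaving out 1 array gave 39 to 43 higher and 0 lower members, medians of 0.72 to 0.74 (0.54 to 0.59 above that of all genes), and 4760 to 8002 higher and 2852 to 4772 lower calls over all genes. One member was called lower, against 0, in 4 alternatives: Gins3 with quantile normalization and the authors' matrix, and Orc4 with spike-in scaling and centring on commonly detected probes.

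The members' median was 0.65 with normexp, 0.42 with quantile normalization, 0.50 with centring on commonly detected probes, 0.41 with cyclic loess, 0.41 with spike-in scaling and 0.42 in the authors' matrix. Its distance from all genes was 0.45 with normexp, 0.38 with quantile normalization, 0.39 with cyclic loess, 0.38 in the authors' matrix and 0.39 with no filter on dim probes. Calls over all genes were 4382 higher and 7253 lower with commonly detected probes, 5542 higher with cyclic loess, 3171 higher and 8211 lower with spike-in scaling, 14564 higher with no filter and 5002 higher and 2859 lower at an adjusted p of 0.01. Signs turned for Gins3 (-0.23 with quantile normalization, -0.23 in the authors' matrix, -0.15 with cyclic loess, -0.051 with spike-in scaling) and Chaf1b (-0.16, -0.17, -0.14 and -0.067). The cause was not tested. Depth limited no member, since all were above background on the 4 arrays.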
